A study of Mus musculus with 3 samples.

Results

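Integrin chain genes for tissue homing were read in mast cells sorted from mouse skin: Itgb7, Itgae, Itga4, Itgb1, Itgb2, Itgb3, Itga2, Itga2b, Itga5 and Itga6. These 10 genes were chosen by name and not by a rule on their values, though with earlier results of these data known. All 10 were found among the 20677 genes of the deposited table. The series holds 3 libraries, with 1 library per origin, from mice of the mixed background C57BL/6xCD1xFVB at 1 week after birth. All 3 libraries came from cells that carried the reporter EYFP, switched on in the embryo when 4-hydroxytamoxifen (4’OHT) activated an inducible Cre. The fetal HSC library (haematopoietic stem cell) came from Runx1Cre/EYFP mice pulsed at embryonic day 9.5, and the late EMP library (erythro-myeloid progenitor) from Runx1Cre/EYFP mice pulsed at day 8.5. The early EMP library came from Csf1rCre/EYFP mice pulsed at day 8.5. Cre expression followed Csf1r in that line and Runx1 in the others, so driver and origin cannot be told apart in any comparison with early EMP.

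Integrins are adhesion receptors, each made of 1 alpha and 1 beta chain, and the pair of chains decides which ligand is bound. The beta chain encoded by Itgb7 joins either the chain of Itga4, to bind MAdCAM-1 on venules of the gut and VCAM-1 elsewhere, or that of Itgae, to bind E-cadherin on epithelial cells. In mice, the first of these pairs is known for bringing mast cell progenitors into the intestine. The beta chain of Itgb1 joins many alpha chains and binds matrix proteins such as fibronectin, collagen and laminin.

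Values are FPKM, which scale fragments by transcript length and by library size, so chains can be set beside each other within a library. With 1 library per origin there is no replicate error, no test was possible and no p-value is given. A difference on the log2 scale is log2((FPKM + 1) / (FPKM + 1)), and 2-fold on that scale is the level counted. The summed FPKM was 640500, 614207 and 639067 in the fetal HSC, late EMP and early EMP libraries, and the steps between low values implied depths of about 17.05, 15.3 and 14.8 M fragments. All 12 connective tissue mast cell markers were measured, with summed levels of 219253, 187846 and 217977 FPKM, so the labelled cell type carried its defining RNAs. Markers of division differed, with 20 mitosis genes summing to 295, 290 and 55.2 FPKM. Xist, the RNA that coats the silenced X in females, was at 52.0, 0.53 and 25.6 FPKM in the same order. For Ddx3y, a gene of the Y chromosome, the values were 0.32, 38.5 and 20.7 FPKM. The early EMP library carried both RNAs, each at a level between those of the other libraries. Both RNAs thus differed in each comparison, so sex and origin cannot be told apart in any of them.

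The sequences before the start sites of the most abundant beta chain genes and of Itga2b are shown because these genes carry the main levels and the 2-fold difference between fetal HSC and early EMP. Each run is the 250 bases before the RefSeq start (GRCm38.p6), read 5′ to 3′ on the gene's own strand. They lie at chr15:102231936-102232185 on the minus strand for Itgb7, chr8:128685404-128685653 on the plus strand for Itgb1 and chr11:102469884-102470133 on the minus strand for Itga2b. Capitals mark every match, on either strand, to motifs bound by 4 families of factors known in mast cells. The GATA motif was searched as AGATAA, with the spellings AGATAG, as well as TGATAA, and finally TGATAG also accepted. The ETS motif was searched as CGGAAG, with the spelling AGGAAG also accepted. The RUNX motif was searched as TGTGGT, with the spelling TGCGGT also accepted. The E-box read by MITF was searched as CACGTG, with the spelling CATGTG also accepted.
Itgb7: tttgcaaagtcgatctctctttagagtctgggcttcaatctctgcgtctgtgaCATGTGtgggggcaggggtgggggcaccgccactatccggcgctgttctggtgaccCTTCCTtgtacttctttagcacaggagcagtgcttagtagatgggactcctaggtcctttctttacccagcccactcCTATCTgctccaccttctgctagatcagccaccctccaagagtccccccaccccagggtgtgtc
Itgb1: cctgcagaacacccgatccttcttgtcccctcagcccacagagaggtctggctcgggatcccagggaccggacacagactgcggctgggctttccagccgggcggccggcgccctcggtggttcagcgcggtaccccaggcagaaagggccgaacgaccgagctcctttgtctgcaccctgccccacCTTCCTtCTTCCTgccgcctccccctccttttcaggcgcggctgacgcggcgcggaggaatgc
Itga2b: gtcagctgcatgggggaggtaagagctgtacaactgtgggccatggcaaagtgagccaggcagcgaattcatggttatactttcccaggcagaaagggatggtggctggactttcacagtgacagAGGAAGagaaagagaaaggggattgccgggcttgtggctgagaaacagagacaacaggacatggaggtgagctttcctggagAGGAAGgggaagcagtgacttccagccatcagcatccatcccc
The Itgb7 window lies inside the span RefSeq gives that gene, which extends further upstream. No 2 of these matches overlap. RefSeq start sites were matched for 6 of the 10 genes: Itgb7, Itga4, Itgb1, Itga2, Itga2b and Itga5. An ETS match was found in 3 of the 6, against 39.2% of all 32851 such windows in mouse. A GATA match was found in 1 of the 6 windows, that of Itgb7, at 64 to 59 bases before the start and on the opposite strand, against 26.5% of all windows. The E-box match was also in Itgb7 (17.6% of all windows), and the RUNX match was in Itga4 (18.6% of all windows). Of 7 motif sets searched, 3 more are not marked in capitals. The AP1 motif, spelled TGAGTCA or in reverse TGACTCA, was in 0 of the 6 windows (4.46% of all windows). The SP1 motif GGGCGG was in 3 of the 6, those of Itga4, Itgb1 and Itga5 (32.7% of all windows). The SMAD motif, CAGAC or the longer spelling GTCTAGAC, was in 4 of the 6, those of Itgb7, Itga4, Itgb1 and Itga2 (42.3% of all windows). The marked sets and the printed windows were chosen after the matches were seen. A match is a stretch of letters and not a measured binding site.

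**Figure D1:**
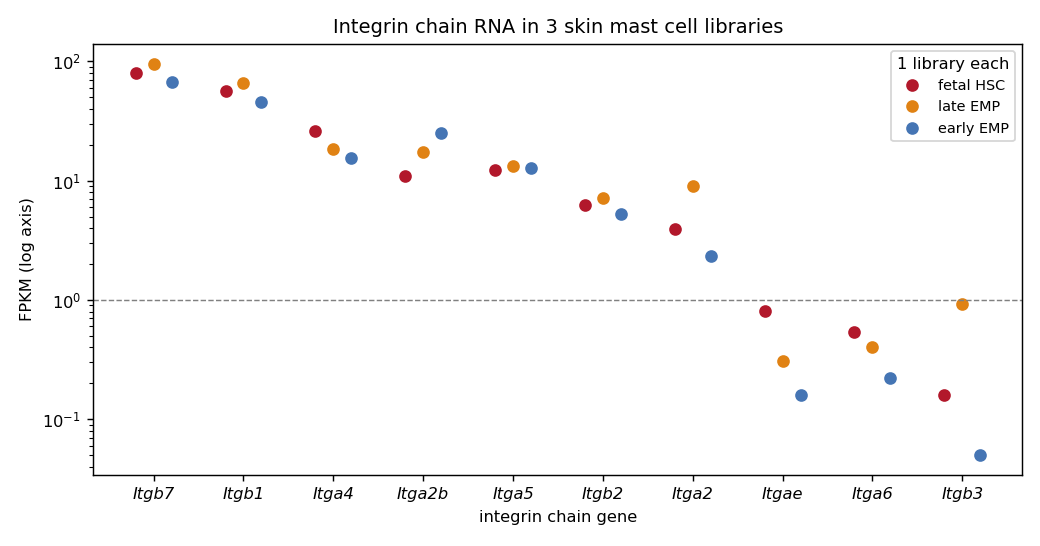
FPKM (log axis) of the 10 integrin chain genes in the fetal HSC, late EMP and early EMP libraries, 1 point per library, ordered by mean level; the dashed line is 1 FPKM. Itgb7 was the highest chain in each library, Itga2b ran in the opposite order of libraries to Itga4, and Itgae, Itga6 and Itgb3 stayed under 1 FPKM.

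The beta chain of the gut-homing integrin was the most abundant integrin RNA in these skin mast cells. Itgb7 (chromosome 15, 102215994 to 102233405, minus strand, GRCm38) was at 80.09 FPKM in fetal HSC, 95.98 in late EMP and 67.87 in early EMP. It ranked 854th, 700th and 982nd among the genes with a symbol, from about 3473, 3734 and 2574 implied fragments. The late EMP library was the highest and the early EMP library the lowest, and they stood 0.49 apart on the log2 scale. Fetal HSC over early EMP gave 0.24 and fetal HSC over late EMP gave -0.26.

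Itgb1 (chromosome 8, 128685654 to 128733579), the shared beta chain of matrix-binding integrins, was at 56.13 FPKM in fetal HSC, 65.6 in late EMP and 45.33 in early EMP. Its libraries stood in the same order as those of Itgb7, at 0.52 for late over early EMP, 0.30 for fetal HSC over early EMP and -0.22 for fetal HSC over late EMP. The ratio of Itgb7 to Itgb1 was 1.43, 1.46 and 1.5, so the balance between these beta chains moved far less than either level. Itgb2 (chromosome 10, 77530329 to 77565708), the beta chain of leukocyte integrins that bind ICAMs, was at 6.2, 7.16 and 5.25 FPKM in the fetal HSC, late EMP and early EMP libraries. Its differences of 0.38, 0.20 and -0.18, in late over early EMP, then fetal HSC over early EMP, then fetal HSC over late EMP, were again all under 2-fold.

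Itgb3 (chromosome 11, 104608000 to 104670476), which joins the chains of Itga2b and Itgav to bind fibrinogen and vitronectin, was close to the lower end of detection. It was at 0.16 FPKM in fetal HSC, 0.92 in late EMP and 0.05 in early EMP, which correspond to about 15, 79 and 4 implied fragments. The late EMP library was the highest. Because of the added 1 FPKM, the log2 difference of late over early EMP was 0.87, and with an added 0.1 FPKM it was 2.77.

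Among all 8 beta chain genes in the table, the make-up was nearly the same in each library. Itgb7 took 55.3%, 55.0% and 56.3% of the summed beta chain FPKM in the fetal HSC, late EMP and early EMP libraries, and Itgb1 took 38.7%, 37.6% and 37.6%. Itgb2 took 4.28%, 4.1% and 4.36%. The sum itself was 145, 175 and 120 FPKM. These shares are formed within a library and do not depend on how libraries are scaled.

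**Figure D2:**
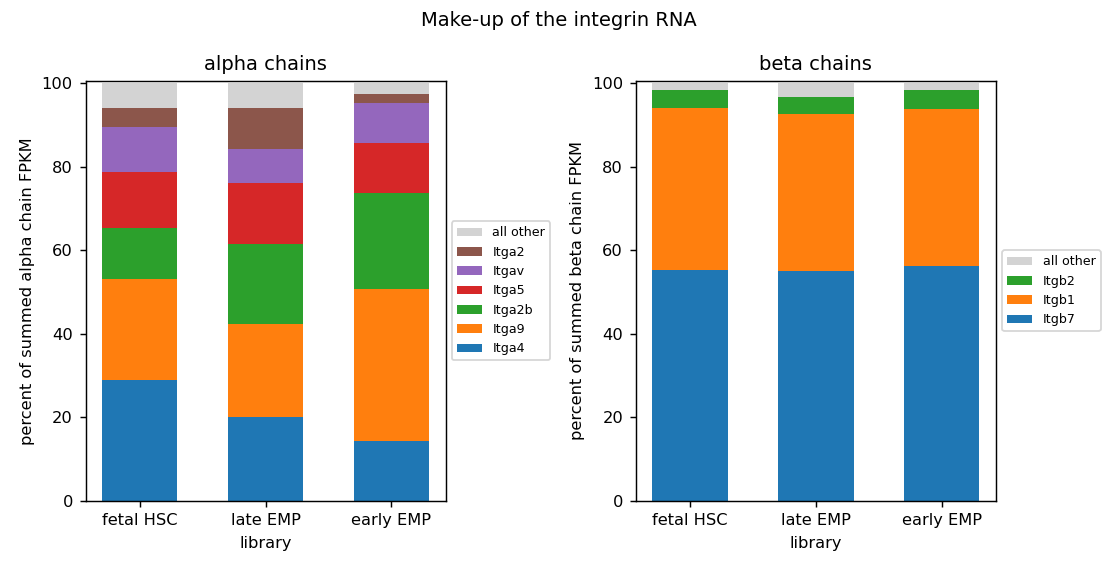
Share of each alpha chain (left) and beta chain (right) in the summed FPKM of all alpha or all beta integrin chains, in percent, for the fetal HSC, late EMP and early EMP libraries. The beta bars look alike, with Itgb7 at 55.0% to 56.3%, while in the alpha bars Itga4 took 29.0%, 20.1% and 14.3%.

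The make-up of the alpha chains was less even across the origins. Itga4 (chromosome 2, 79255426 to 79333114), which joins Itgb7 or Itgb1, was at 26.27 FPKM in fetal HSC, 18.29 in late EMP and 15.42 in early EMP. The fetal HSC library was the highest, at 0.73 over early EMP and 0.50 over late EMP on the log2 scale, and late over early EMP gave 0.23. None of these reached 2-fold. As a share of the summed FPKM of 17 alpha chain genes, Itga4 took 29.0%, 20.1% and 14.3%. In the GENCODE annotation 1124 exonic bases of Itga4 are shared with Cerkl on the opposite strand, which was at 0.0, 0.28 and 0.97 FPKM, highest where Itga4 was lowest; no source used here says whether the counting used strand.

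Itgae (chromosome 11, 73090505 to 73147449) encodes the alpha chain known as CD103, the other partner of Itgb7. It was at 0.81 FPKM in fetal HSC, 0.31 in late EMP and 0.16 in early EMP, under 1 FPKM in each. Itga4 exceeded it 32.4, 59 and 96.4 times. The gene spans Haspin, a kinase of mitosis read from the opposite strand, which was at 1.46, 2.92 and 2.46 FPKM; no exonic bases are shared. Together the 2 alpha partners of Itgb7 summed to 27.1, 18.6 and 15.6 FPKM, against 80.09, 95.98 and 67.87 FPKM for Itgb7 itself.

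Itga2b (chromosome 11, 102453297 to 102469883), the alpha chain of the platelet fibrinogen receptor and a marker of early blood progenitors, had the largest difference between fetal HSC and early EMP among the 7 members that reached 1 FPKM in a library. It was at 10.95 FPKM in fetal HSC, 17.41 in late EMP and 24.97 in early EMP. The early EMP library was the highest and the fetal HSC library the lowest, with fetal HSC at 0.439 times early EMP and a log2 difference of -1.12. Of the members under 1 FPKM, Itgae gave 0.64 in this comparison and 1.81 with an added 0.1 FPKM, where Itga2b gave -1.18. Late over early EMP gave -0.50 and fetal HSC over late EMP gave -0.62. Its share of alpha chain FPKM was 12.1%, 19.1% and 23.2%. The value covers 6 transcripts, of which 5 are unnamed ones added by the authors' annotation.

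RNAs of platelets and their precursors were read beside Itga2b. The 9 listed genes summed to 59.7 FPKM in fetal HSC, 106 in late EMP and 109 in early EMP, so the fetal HSC library was the lowest, as for Itga2b. Of the 6 measured, 3 were at least 2-fold lower in fetal HSC than in early EMP and none was higher. The shares of all genes in that comparison were 17.8% lower and 8.18% higher. Pf4 and Gp9 (0.87 FPKM against 3.31) were among the 3 lower genes. Pf4, a platelet chemokine, was at 7.05, 38.32 and 46.72 FPKM. Gp1ba, a chain of the platelet von Willebrand factor receptor, was level at 44.32, 44.16 and 42.53 FPKM, while Ppbp and Gp1bb were at 0 in both the fetal HSC and early EMP libraries and at 0.27 and 0.72 FPKM in late EMP. Their part in the Itga2b difference was not tested, and in bulk RNA fewer cells of a type and less RNA per cell cannot be told apart.

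Itga2 (chromosome 13, 114833081 to 114932100), the alpha chain of a collagen and laminin receptor known as CD49b, set the late EMP library apart. It was at 3.95 FPKM in fetal HSC, 9.05 in late EMP and 2.32 in early EMP, from about 469, 965 and 240 implied fragments. Late EMP was 3.9 times early EMP, a log2 difference of 1.60. Fetal HSC over late EMP gave -1.02, and -0.91 when libraries were scaled by the median of gene ratios, so that difference sits at the 2-fold line. Fetal HSC over early EMP gave 0.58.

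Other cells of skin carry Itga2, and their markers were read beside it. Keratinocyte markers, 7 genes, summed to 1.46, 3.45 and 1.27 FPKM in the fetal HSC, late EMP and early EMP libraries, with Krt5 at 0.31, 1.1 and 0.51 FPKM and Krt14 at 0.58, 0.77 and 0.0 FPKM. Fibroblast markers, also 7 genes, summed to 4.93, 7.64 and 1.54 FPKM, with Col1a1 at 0.87, 3.0 and 0.79 FPKM. Both sums were highest in late EMP, as Itga2 was, but only 1 keratinocyte and 4 fibroblast markers reached 1 FPKM in a library. Other members of these lists went other ways. Thy1 (1.23, 0.44 and 0.0 FPKM), Lum (0.48, 0.23 and 0.0) and Krt10 (0.53, 0.42 and 0.1) were highest in fetal HSC. Krt1, Col17a1 and Dsg3 were highest in early EMP, at 0.28 FPKM or less. The 7 basophil genes, most of which mast cells share, summed to 3393, 2201 and 4134 FPKM, with late EMP the lowest. Single genes differed from that sum. Prss34 (988.86, 458.74 and 2386.27 FPKM) and Il4 (855.6, 692.09 and 837.27) were lowest in late EMP, and Il13 in fetal HSC. Mcpt8 (35.86, 17.45 and 14.53), Cd200r3 (686.89, 433.93 and 384.57), Fcgr3 (769.05, 537.34 and 430.64) and Cebpa (0.28 or less) were lowest in early EMP, as Itga2 was. The part of these cells in the Itga2 difference was not tested.

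Itga5 (chromosome 15, 103344286 to 103366791), the alpha chain of the main fibronectin receptor, was nearly level, at 12.22 FPKM in fetal HSC, 13.32 in late EMP and 12.85 in early EMP. Its log2 differences were 0.05 for late over early EMP, -0.07 for fetal HSC over early EMP and -0.12 for fetal HSC over late EMP, and both of these turned to 0.01 when libraries were scaled by the median of gene ratios. Itga6 (chromosome 2, 71786886 to 71858427), a laminin receptor chain, was at 0.54, 0.4 and 0.22 FPKM, under 1 FPKM in each library.

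**Figure D3:**
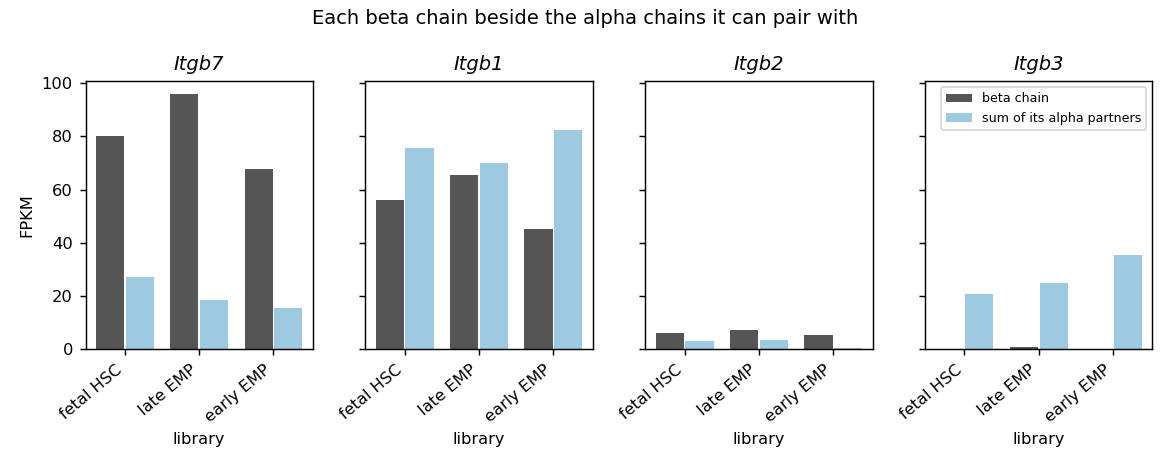
FPKM of 4 beta chains (dark bars) beside the summed FPKM of the alpha chains each is known to pair with (light bars), for the fetal HSC, late EMP and early EMP libraries. Itgb7 exceeded its alpha partners in each library, while Itgb3 was at 0.92 FPKM or less beside partners that summed to 20.8 to 35.3 FPKM.

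Set beside their known partners, the chains were unevenly matched at the RNA level. Itgb1 was at 56.13, 65.6 and 45.33 FPKM beside 12 alpha partners that summed to 75.8, 69.8 and 82.3 FPKM in the fetal HSC, late EMP and early EMP libraries. Itgb2 was at 6.2, 7.16 and 5.25 FPKM beside 2.93, 3.58 and 0.38 FPKM for its 3 alpha partners. Itga2b exceeded Itgb3, the beta chain it is known to pair with, 68.4, 18.9 and 499 times, the last against an Itgb3 value of 0.05 FPKM. Itgav and Itga4 count under more than 1 beta chain in these sums, and RNA levels do not give the amount of paired protein at the surface.

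In late over early EMP, 1 of the 7 members at 1 FPKM or more in at least 1 library was at least 2-fold apart, Itga2, against 19.4% of 14412 genes (8.64% higher and 10.8% lower). The median of the 7 was 0.38, beside 0.00 for all genes and 0.06 for the 11529 genes with a symbol. In fetal HSC over early EMP it was again 1 of 7, Itga2b, against 26.0% of all genes (8.18% higher and 17.8% lower), with medians of 0.24 for members and -0.11 for all genes. In fetal HSC over late EMP it was 1 of 7, Itga2, against 11.7% of all genes (3.44% higher and 8.26% lower), with medians of -0.22 and -0.10. Among genes with a symbol the shares were 11.8%, 16.6% and 8.07%. With 7 genes, each count of 1 is near these shares. The comparisons share libraries and are not independent of each other.

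**Figure D4:**
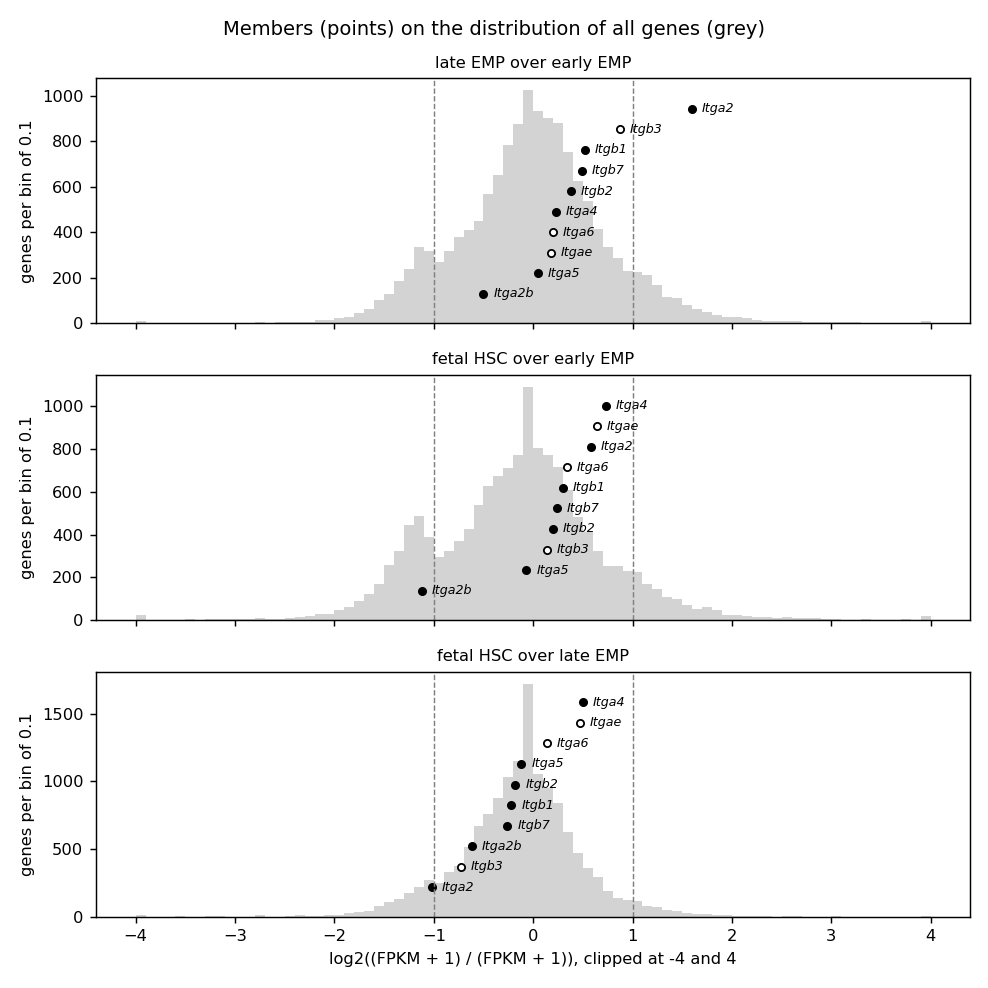
Log2 differences of the 10 integrin genes (points, spread upward only for legibility) over the distribution for all 14412 genes (grey, number of genes per bin of 0.1), for each comparison; filled points are the 7 members at 1 FPKM or more in at least 1 library, open points the others, and dashed lines mark 2-fold. Itga2 lay at 1.60 in late over early EMP and Itga2b at -1.12 in fetal HSC over early EMP, with most members between the lines.

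Of the 15 other integrin chain genes in the table, 5 reached 1 FPKM. Itga9, the alpha chain of a receptor for osteopontin, VCAM-1 and tenascin, was among the most abundant alpha chains, at 21.78, 20.34 and 39.1 FPKM in the fetal HSC, late EMP and early EMP libraries. The early EMP library stood highest, and the log2 differences of -0.91 for late EMP and -0.82 for fetal HSC over early EMP fell short of 2-fold. Relative to Itga4, which shares Itgb1 with it, the ratio was 0.829, 1.11 and 2.54, so Itga4 exceeded Itga9 in the fetal HSC library alone. Itgav, the alpha chain of vitronectin receptors, was at 9.88, 7.37 and 10.32 FPKM. Itgb4, of the laminin receptor of basal epithelium, was at 1.79, 3.57 and 1.6 FPKM.

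Itgal, the alpha chain of LFA-1, was at 1.85 FPKM in fetal HSC, 3.24 in late EMP and 0.38 in early EMP, at least 2-fold higher than early EMP in both (1.05 and 1.62 on the log2 scale). Itga7, a laminin receptor chain of muscle, was at 0.03, 0.48 and 1.31 FPKM, at least 2-fold lower in fetal HSC than in early EMP (-1.17). Of the 5 other chains measured, 1 was higher and 1 lower in that comparison, against 8.18% and 17.8% of all genes. In late over early EMP 1 was higher and 0 lower, against 8.64% and 10.8% of all genes. In fetal HSC over late EMP 0 were apart, against 11.7% of all genes. Markers of lymphoid cells, which carry Itgal, summed to 63.5, 47.5 and 36.6 FPKM over 10 genes, and dendritic and Langerhans markers to 9.12, 3.91 and 4.26 FPKM over 7 genes. The most abundant lymphoid markers, Icos (23.36, 21.62 and 9.42 FPKM) and Il7r (18.56, 16.97 and 10.99), were lowest in early EMP. Cd3e went the other way, at 0.63, 0.0 and 13.54 FPKM. Itgam and Itgax, typical of macrophages and dendritic cells, were at 0.72 FPKM or less in every library, while 10 macrophage genes summed to 13.6, 50.6 and 62.6 FPKM. The part of these cells in the levels of Itgal was not tested.

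Of 16 measured genes that switch integrins on, 0 were 2-fold apart in each comparison, against 19.4%, 26.0% and 11.7% of all genes and 11.8%, 16.6% and 8.07% of those with a symbol. With an added 0.1 FPKM the counts were 1, 2 and 2. The medians of log2 differences were 0.09, 0.00 and -0.21 in late over early EMP, then fetal HSC over early EMP, then fetal HSC over late EMP. Fermt3, the kindlin of blood cells that activates beta chains from inside, was at 120.44, 148.11 and 148.91 FPKM in the fetal HSC, late EMP and early EMP libraries. Rap1a, the small GTPase upstream of talin, was at 78.35, 95.15 and 80.11 FPKM.

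Genes that hold integrins inactive had 1 of 9 measured members apart in late over early EMP, 2 in fetal HSC over early EMP and 1 in fetal HSC over late EMP, near the 19.4%, 26.0% and 11.7% of all genes. Flna, a filamin that competes with talin for the beta tail, was at 6.36 FPKM in fetal HSC, 8.68 in late EMP and 2.05 in early EMP, so it was higher in both others than in early EMP (1.27 and 1.67). The medians of this list were 0.25, -0.13 and -0.20. Itgb1bp1, which binds the tail of the Itgb1 product, was at 26.0, 16.91 and 14.06 FPKM, and Numb, an endocytic adaptor, at 21.16, 21.29 and 19.89 FPKM. Dab2, an endocytic adaptor of beta chains, was at 0.04, 2.93 and 3.65 FPKM and completes the count against early EMP and makes up that against late EMP; it was named after its values were seen.

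Of 23 measured genes of the adhesion complex, 1, 2 and 1 were apart in late over early EMP, then fetal HSC over early EMP, then fetal HSC over late EMP, against 19.4%, 26.0% and 11.7% of all genes, and the medians were 0.25, -0.07 and -0.30. Ilk, the pseudokinase that links beta tails to actin, was at 89.91, 127.9 and 95.36 FPKM in the fetal HSC, late EMP and early EMP libraries, and Cd47, an integrin-associated receptor, at 118.98, 127.98 and 97.9 FPKM. Ptk2b, the adhesion kinase of blood cells, was lower in the fetal HSC library, at 28.13 FPKM against 59.23 in late EMP and 56.17 in early EMP (log2 -1.05 and -0.97). It is the gene counted in fetal HSC over late EMP, and with libraries scaled by the median of gene ratios that count was 0. The actin regulator Evl, named after its values were seen, was among the genes counted as higher in fetal HSC than in early EMP (1.38 FPKM against 0.0).

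Tetraspanins, membrane proteins that hold integrins in clusters, were among the most abundant RNAs read here, with Cd63 at 1218.21, 1163.61 and 1625.25 FPKM and Cd81 at 1165.83, 1066.2 and 1097.38 FPKM. Of 9 measured, 2 were apart in fetal HSC over early EMP and 0 in either of the other comparisons, against 19.4%, 26.0% and 11.7% of all genes in late over early EMP, then fetal HSC over early EMP, then fetal HSC over late EMP; the medians were -0.18, -0.20 and 0.11. The 2 became 1 with libraries scaled by the median of gene ratios, and the 0 in late over early EMP became 1 with libraries scaled to the same total. Cd9 was at 168.91, 138.74 and 71.33 FPKM, a log2 difference of 1.23 for fetal HSC over early EMP. Cd151, a partner of laminin-binding integrins, was at 3.3, 4.44 and 7.72 FPKM, a difference of -1.02.

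Ligands of integrins, many of which are matrix proteins of other cells, were mostly low. Of 23 ligand genes in the table, 4 reached 5 FPKM in a library: Icam1 at 25.47, 29.76 and 27.77 FPKM in the fetal HSC, late EMP and early EMP libraries, Icam4 at 15.68, 14.46 and 9.45, Icam2 at 5.99, 10.48 and 3.3, and Spp1, which encodes osteopontin, at 0.09, 6.18 and 0.0. The late EMP library alone held Spp1 above 1 FPKM. Of the 12 measured, 4 were apart in late over early EMP all higher: Spp1, Icam2 and the collagens Col1a1 and Col1a2. The count was 2 in fetal HSC over early EMP, with Col1a2 higher and Ltbp1, which binds latent TGF-beta, lower. It was 3 in fetal HSC over late EMP, where Spp1, Col1a1 and Ltbp1 were lower. The shares of all genes apart were 19.4%, 26.0% and 11.7% in these comparisons. The collagens (3.0 FPKM or less) and Ltbp1 (0.59, 2.18 and 4.9 FPKM) were named after their values were seen. The medians of the list were 0.73, 0.18 and -0.49. Cdh1, the E-cadherin bound by the Itgae product, was at 0.0, 0.12 and 0.34 FPKM, and Vcam1 at 1.08, 0.45 and 0.2 FPKM.

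Of 13 other homing receptors measured, 2 (Pecam1 and S1pr2) had their lowest level in fetal HSC, 1 (S1pr3) in late EMP and 10 in early EMP. Among the 13, 6 were at least 2-fold higher in late than in early EMP and none lower, and 6 were higher in fetal HSC than in early EMP and none lower, with medians of 0.81 and 0.60, against 8.64% and 8.18% of all genes higher. Markers of neutrophils, lymphoid cells and division were also mostly higher than in early EMP. Neutrophil markers summed to 112, 48.1 and 3.07 FPKM in the fetal HSC, late EMP and early EMP libraries. In the same order Mpo was at 47.88, 39.18 and 0.88, Elane at 34.74, 8.73 and 0.42, and S100a8 at 28.95, 0.0 and 1.3. Ly6g, Ltf and Cxcr2, of the same list, were at 0.42 FPKM or less in every library. Of the 3 neutrophil markers measured, 3 were higher in fetal HSC than in early EMP. In late against early EMP, 2 were higher and 1, S100a8, was lower. Of the 9 measured lymphoid markers, 5 were at least 2-fold higher and 1 lower in fetal HSC than in early EMP, and 4 were higher and 1 lower in late than in early EMP. Of the 20 mitosis genes, 18 were higher in fetal HSC and 20 in late EMP. Their part in the homing receptor levels was not tested. Cxcr6 was at 18.43, 23.06 and 0.48 FPKM in the fetal HSC, late EMP and early EMP libraries, Ccr2 at 6.66, 5.56 and 0.11, and Ccr1 at 6.17, 2.28 and 0.48. S1pr1, a receptor for egress signals, was also higher in both, at 2.61 FPKM in fetal HSC and 1.61 in late EMP against 0.09 in early EMP. Selplg, the selectin ligand used in entry to skin, was at 98.47, 80.53 and 64.64 FPKM, and Cd44, a hyaluronan receptor, at 119.02, 137.05 and 99.95 FPKM. Ccr9, the gut-homing chemokine receptor that works with the Itgb7 pair, was at 0.0, 0.39 and 0.3 FPKM. In fetal HSC over late EMP, Ccr1 and Cxcr3 (2.51 FPKM against 0.62) were higher and S1pr4 (1.09 against 3.24) lower, with a median of 0.22. The shares of all genes in that comparison were 3.44% higher and 8.26% lower. These 3 genes apart became 2 with libraries scaled by the median of gene ratios, and 0 with an added 5 FPKM. Pecam1, S1pr2, S1pr3, S1pr1, Cxcr3 and S1pr4 were named after their values were seen.

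TGF-beta signalling was read because TGF-beta is known to raise Itgae in mast cells and lymphocytes. Of its 10 genes, 1 was at least 2-fold higher in late than in early EMP, 2 were higher in fetal HSC than in early EMP and none was apart in fetal HSC over late EMP, against 8.64% and 8.18% of all genes higher and 11.7% apart; the 1 became 2 with libraries scaled to the same total. Tgif1, a repressor of the pathway, was at 19.93, 19.38 and 5.86 FPKM in the fetal HSC, late EMP and early EMP libraries, and Skil, another repressor, at 15.37, 11.32 and 5.23 FPKM. Both were lowest in early EMP, where Itgae was also lowest, though Itgae was under 1 FPKM in each library. A link of these genes to Itgae was not tested. The medians of this list were 0.17, -0.16 and 0.00. Tgfbr2, the ligand-binding receptor, was at 30.17, 45.19 and 38.11 FPKM and Smad7, a feedback inhibitor, at 33.6, 33.14 and 41.04 FPKM.

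Mucosal mast cells of the gut are the setting in which Itgb7 is best known, so their proteases were read with it. Mcpt1 was at 4.36, 10.43 and 0.07 FPKM in the fetal HSC, late EMP and early EMP libraries, Mcpt2 at 60.12, 35.18 and 7.62, and Mcpt9 at 20.91, 11.99 and 14.48. Mcpt1 and Mcpt2 were lowest in early EMP, and the early EMP library was also the lowest for Itgb7 and Itga4, though by under 2-fold. That order was not particular to this pair. Early EMP was also the lowest for every other member except Itga2b and Itga5. Endothelial markers summed to 5.08, 7.67 and 7.63 FPKM, mostly from Pecam1 (4.66, 7.24 and 6.29), which was also read as a homing receptor. The other endothelial markers were each at 0.66 FPKM or less in every library. Neutrophil markers summed to 112, 48.1 and 3.07 FPKM, and melanocyte markers to 40.7, 13.8 and 1.59. Their part in the integrin levels was not tested.

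By the largest gap between log2 values centred over the libraries, the genes nearest to Itgb7 were B3gnt8, Rab18, Lars and Ola1, within 0.00828 to 0.0116, and 348 of 7836 genes at 5 FPKM or more lay within 0.1. With 3 libraries this describes the order and size of 3 values only. No such genes are given for Itgae, because its values under 1 FPKM make its pattern on this scale depend on the added 1 FPKM.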

How the data were processed

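Total RNA from the sorted cells of each origin (TRIzol) was sequenced on an Illumina HiSeq in 3 libraries, per the labels' protocols. One table was deposited by the authors, with FPKM values per gene for each library, per the file headers, with 2 decimals; RSEM, Bowtie2 and the builds GRCm38 and mm10 are named in the submitters' processing notes, without versions. The column headed ctrl was taken as early EMP from the description of that library. The members, lists and motifs were chosen with earlier results of these data known; 7 motif sets were searched, and the 4 marked in the printed sequences, like the windows printed, were chosen after the matches were seen. Genes at 1 FPKM or more in at least 1 library were kept, 14412 of 20677, 11529 of them with a symbol. FPKM is a share, so the granule protease genes that dominate a library lower all others, and a listed 0 can be a failed estimate.

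No source used here states the depth. Low values of genes with 1 transcript gave an implied depth: 64.2%, 73.4% and 72.8% of them (fetal HSC, late EMP, early EMP) came within 0.15 of a whole fragment number; 30% would do so by chance for a fixed step, so it is an imprecise estimate. Since multiples of a depth fit about as well, the best fit near the smallest well-fitting depth was taken. Implied fragments are given only for members with 1 transcript, and precision covers no variation between animals. The computations were tested on simulated data. Named genes were the 10 members, the other integrin chains at 1 FPKM or more, and for each list the most abundant pair and up to 4 genes at least 2-fold apart at 5 FPKM or more; genes named outside this rule, among them single cell type markers, were chosen after their values were seen. The rule also asked for the genes most like Itgae, which are left out because Itgae is under 1 FPKM. A few genes counted in the lists are not reported here by name. Alternatives were pseudocounts of 0.1 and 5 FPKM, other filters, 3 scalings and a 1.5-fold level. Coordinates and promoters come from RefSeq GRCm38.p6, transcript lengths and overlaps from GENCODE M21 (GRCm38). Python 3.11.15, numpy 2.4.6, pandas 2.3.3 and matplotlib 3.10.9 were used.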

Additional observations from a re-analysis of the deposited data

How the results depend on the processing

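No paired analysis was possible because each group has 1 library. With a pseudocount of 5 FPKM, 0 members were 2-fold apart in every comparison; under median-of-ratios factors 0 were in fetal HSC over late EMP. At a 1.5-fold level 2 were in fetal HSC over early EMP (Itga2b and Itga4) and 2 in fetal HSC over late EMP (Itga2 and Itga2b). The other settings kept the count at 1, and restricting the table to genes with a symbol, chosen after seeing the data, did too. No log2 difference of a member at 2-fold or more reversed. Of 150 recomputed, 142 stayed on their side of 2-fold and 8 crossed it.

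Counts over all genes moved more. In late over early EMP, 2798 genes became 4522 with a pseudocount of 0.1 FPKM, 328 with 5 FPKM and 766 with a filter at 5 FPKM. In fetal HSC over early EMP, 3745 became 460 with a pseudocount of 5 FPKM and 1097 with the filter. In fetal HSC over late EMP, 1686 became 3615, 195 and 524 in the same order as the first. Over the other integrin chains and the 7 lists of ligands, activation, inactivation, adhesion, tetraspanin, homing receptor and TGF-beta genes together, without the cell type and mitosis lists, 14 genes in late over early EMP became 24, 4 and 7 in that order, 18 in fetal HSC over early EMP became 5 and 8 with the pseudocount of 5 FPKM and the filter, and 8 in fetal HSC over late EMP became 16, 1 and 3, or 5 with median-of-ratios factors. Summed over the 10 members only, the alpha chain shares in the fetal HSC, late EMP and early EMP libraries were 48.0%, 31.1% and 27.6% for Itga4, 20%, 29.6% and 44.6% for Itga2b, and 7.22%, 15.4% and 4.15% for Itga2. A larger pseudocount or filter weighs down low genes by construction, and a sum over fewer chains raises each share; for the median-of-ratios factors the cause was not tested. Depth limits the values of Itgb3, Itgae and Itga6.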
